A study of Mus musculus with 14 samples.

Results

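Genes of mitochondrial proteins were examined in ChIP-seq peak lists of mouse muscle stem cells for binding of MyoD and MyoG. Members were taken by symbol. A gene was a member when its name in the lists began with the prefix or carried the symbol of a mitochondrial family: respiratory chain and ATP synthase subunits, coenzyme Q synthesis, mitochondrial ribosomal proteins, import translocases, metabolite carriers, the calcium uniporter, fuel oxidation enzymes, fusion and fission proteins, or mitochondrial transcription factors. Of the 4386 genes named in the 12 lists, 24 were members, and 55 of 10303 peaks carried their names. The prefixes do not check the protein: Mfng encodes a Golgi glycosyltransferase of the Notch pathway and matched only through the letters it shares with the mitofusins, and Cox6c2 is a pseudogene in RefSeq. All 24 symbols matched a RefSeq gene.

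All mice carried a mito-Dendra2 allele, a fluorescent protein of mitochondria, switched on by Pax7-Cre(ERT2), so that Pax7-lineage cells and their progeny were labelled, and their genotype was otherwise given as wild-type. They received tamoxifen (75 mg/kg daily for 5 days), and the tibialis anterior muscle of the leg was injured with 50 µL of 1.2% BaCl2 with saline given to the contralateral side. After 2 days, activated stem cells (ASCs; Dendra2+, CD34-) were sorted from injured muscle and quiescent stem cells (QSCs; Dendra2+, CD34+) from saline-injected muscle. Both cell states were precipitated with either antibody, and each of the 4 resulting groups (called by cell state and factor, as in ASC MyoD) had 3 libraries. Age, sex and the number of animals behind a library were not given in the sources used here, and injury, sorting gate and cell state cannot be told apart.

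Mitochondria burn fuels through the citric acid cycle and the respiratory chain, import nearly all of their proteins from the cytosol, translate the few encoded by their own DNA on a dedicated ribosome, and take up calcium through a uniporter of the inner membrane. MyoD is the transcription factor that commits cells to the muscle lineage and is induced as stem cells activate, and MyoG drives their later differentiation. Both bind the E-box, CANNTG in DNA letters, where N is any base.

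The lists held 2262 to 2652 peaks in ASC MyoD, 605 to 916 in ASC MyoG, 139 to 174 in QSC MyoD and 120 to 167 in QSC MyoG. Read depth was unknown. As a check of the sorted cells, peaks were named for Myod1 in 3 of 3 ASC MyoD libraries and in 1 ASC MyoG library, for Myog in 2 and for Pax7 in 1 ASC MyoD library. None of these genes, nor Myf5 or Cd34, was named in a QSC list. Peaks show binding and not expression, so the identity of the QSCs was not tested by them.

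Promoter sequence was read from RefSeq windows on GRCm38.p6, the mm10 build of the peaks, for starts whose upstream bases lay under a member's peak. The stretches shown lie outside every RefSeq gene span, run 5′ to 3′ on the + strand up to the base before the start, and have E-boxes in capitals. Mrpl34 is shown because, among the starts in the RefSeq table, its peak was the only one to cover the entire upstream window of its own gene (218 of 218 bases shown, chr8:71464708-71464925), and Gm38534, a long noncoding RNA gene, because its start lies at the edge of the highest-scoring region of any member, which the authors' annotation gave to Mrps23. The start and 147 of the 250 bases before it (chr11:88230708-88230957) lay in the replicate 2 peak only, and the higher-scoring peaks of replicates 1 and 3 began past the start.
Mrpl34: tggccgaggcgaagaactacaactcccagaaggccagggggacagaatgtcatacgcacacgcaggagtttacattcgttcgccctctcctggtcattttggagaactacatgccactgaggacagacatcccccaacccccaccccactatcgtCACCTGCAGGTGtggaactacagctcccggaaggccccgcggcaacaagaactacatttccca
Gm38534: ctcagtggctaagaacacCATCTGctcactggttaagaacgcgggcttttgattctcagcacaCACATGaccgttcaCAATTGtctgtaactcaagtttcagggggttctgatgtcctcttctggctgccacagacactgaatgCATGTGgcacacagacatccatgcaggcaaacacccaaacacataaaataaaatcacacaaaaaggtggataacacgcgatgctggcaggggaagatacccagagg
The Mrpl34 stretch held CACCTG and CAGGTG, side by side at 63 and 57 bases before the start, both inside the peak. Of the 4 E-boxes before Gm38534, CATGTG at 106 bases lay inside the replicate 2 peak, while CATCTG (232), CACATG (187) and CAATTG (173) lay outside it. The Mrpl48 promoter peak of ASC MyoD replicate 2, not shown, covered 193 of the 250 bases before the Mrpl48 start, which held no E-box. That peak also covered all 250 bases before the start of Rab6a, with CAGCTG at 113 bases. An E-box on either strand was found in the 250 bases before 62.8% of 21263 RefSeq starts of protein-coding genes, 63.9% of 302 starts of family genes and 12 of 22 starts of members (54.5%). CAGGTG or CACCTG was present before 16.9%, 14.6% and 13.6% of these starts, CAGCTG before 12.1%, 10.3% and 4.55%, and CAGATG or CATCTG before 12.4%, 13.9% and 18.2%. The table of starts held only 17 of the 24 members and 264 family genes, some with more than 1 start. These shares describe promoter letters and not the bound regions, which mostly lay elsewhere.

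Peaks at the members were mostly MyoD peaks of ASCs, 51 of 55, as were 7210 of the 10303 peaks of all genes. The 3 ASC MyoD libraries held 15, 17 and 19 of them at 13, 13 and 17 genes (mean 17 ± 2 peaks, SD, n = 3). ASC MyoG libraries held 1, 1 and 0, QSC MyoD libraries 0, 0 and 0, and QSC MyoG libraries 1, 1 and 0. Of the 24 members, 22 had an ASC MyoD peak, 2 an ASC MyoG peak, none a QSC MyoD peak and 2 a QSC MyoG peak. The same held for 67.6%, 28%, 7.87% and 9.42% of the 4386 listed genes in that order, and the difference from the members was not tested. The ASC and QSC ranges did not overlap for MyoD (difference 17 peaks per library, exact two-sided permutation p = 0.1, adjusted 0.325), and the MyoD and MyoG ranges did not overlap in ASCs (difference 16.3, exact p = 0.1, adjusted 0.325). This p is the smallest that 3 libraries against 3 allow. For MyoG the ASC and QSC means were both 0.667 ± 0.577 (exact p = 1).

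The number of peaks in a list moved with these counts. As a share of the library, member peaks made up 0.566%, 0.752% and 0.828% in ASC MyoD (mean 0.715 ± 0.135%), 0.109%, 0.165% and 0% in ASC MyoG (mean 0.0915 ± 0.0841%) and 0.833%, 0.617% and 0% in QSC MyoG (mean 0.484 ± 0.433%). The shares of ASC MyoD were above those of ASC MyoG in every library (difference 0.623 percentage points, exact permutation p = 0.1, adjusted 0.325) and above the 0% of QSC MyoD (difference 0.715, exact p = 0.1, adjusted 0.325). With 484 QSC MyoD peaks in all, however, the upper 95% Wilson bounds of the 3 QSC MyoD lists were 2.20%, 2.69% and 2.16%, higher than every ASC MyoD share, so at this list length an absence of member peaks could not be told from a share as high as in ASCs. These bounds cover counting error of peaks only. The MyoG shares of ASCs and QSCs overlapped (difference -0.392, exact permutation p = 0.4, adjusted 0.65). Each nonzero share rests on 1 peak: the difference was -0.634 without QSC MyoG replicate 3, when the ranges no longer overlapped (exact permutation p = 0.1, the smallest possible), and -0.217 without QSC MyoG replicate 1.

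**Figure D1:**
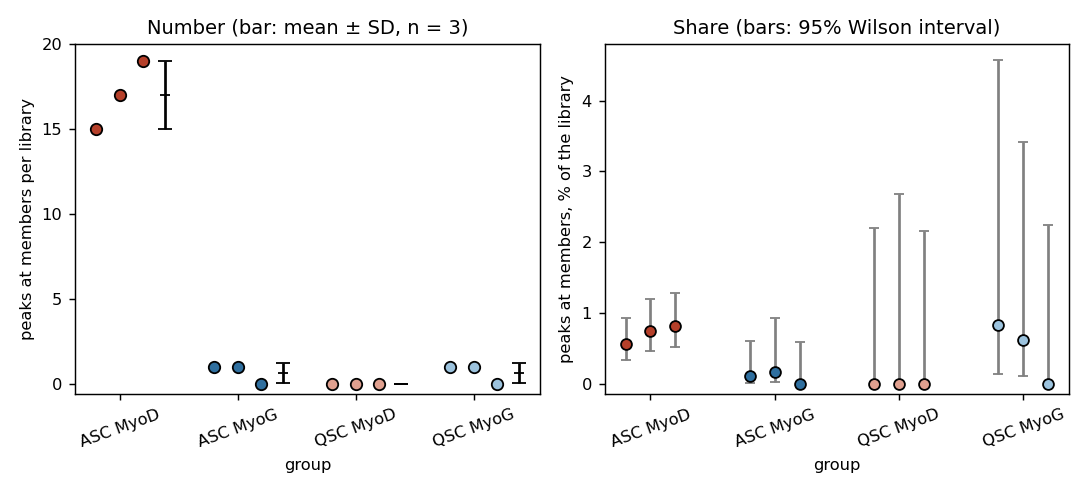
Member peaks per library in the 4 groups, as a number (left; points are libraries, the bar is the mean ± SD, n = 3) and as a percent of all peaks of the library (right; bars are 95% Wilson intervals). ASC MyoD libraries hold 15 to 19 member peaks and the other 9 libraries at most 1, while the intervals of the short QSC lists reach past the ASC MyoD shares.

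Merging peaks that shared at least 1 bp gave 31 member regions, each named for a single gene in all libraries. Of these, 14 recurred in ASC MyoD, that is, had a peak in at least 2 of its 3 libraries (9 in 3 libraries and 5 in 2), and they belonged to 12 members, 11 with a mitochondrial product and Mfng. Another 14 regions had an ASC MyoD peak in a single library, and 3 had only a MyoG peak. No member region recurred in another group. In ASC MyoG 221 regions recurred, all of other genes. Members held only 2 of the 2160 ASC MyoG peaks, so this absence is not a result about the members. Of all 4386 listed genes, 36.9% had a recurring ASC MyoD region, against 12 of 24 members (50%). A recurring region free of QSC MyoD peaks was present for 36.7% of listed genes and for the same 12 members. A region in all 3 ASC MyoD libraries without a QSC MyoD peak was present for 21.8% of listed genes and 8 of 24 members (33.3%).

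**Figure D2:**
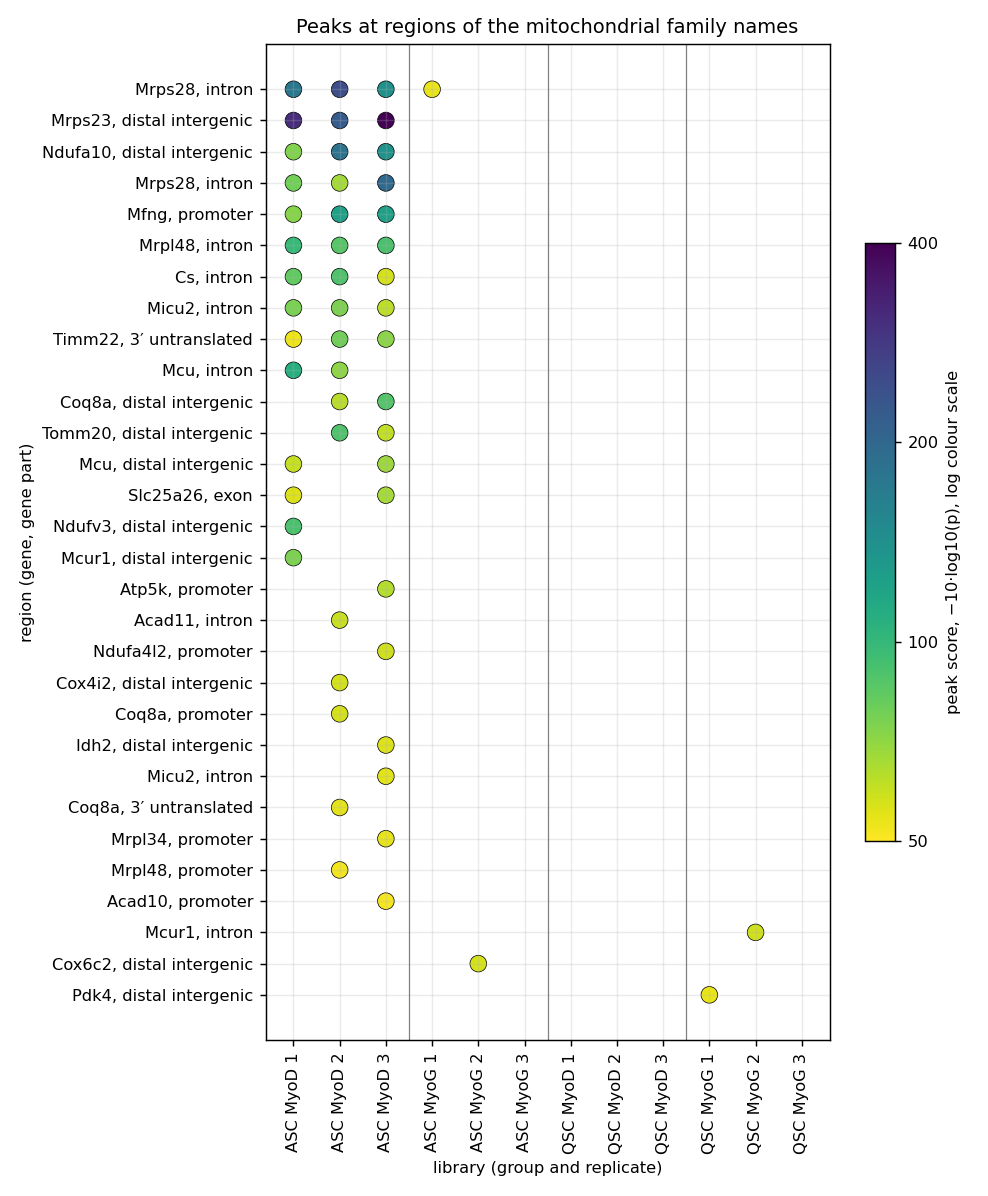
Member regions (rows, with the gene part; 30 of 31 are drawn) in the 12 libraries (columns). A dot marks a called peak and its colour the score on a log scale, and dots fill the ASC MyoD columns while 4 stand in the MyoG columns and none in those of QSC MyoD.

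The family names were also set against all genes of the genome. RefSeq lists 315 protein-coding genes under these names, and 23 of them (7.30%) had a peak in any list, against 14.4% of all 21887 coding genes. A recurring ASC MyoD region was present for 12 of the 315 (3.81%) and for 5.93% of coding genes, and a peak in a MyoG or QSC list for 3 (0.952%) and 5.11%. At promoters, defined in the lists as within 3 kb of a start, the only recurring member region was that of Mfng, 1 of 315 (0.317%) against 1.64% of coding genes, so none of the 312 family genes with a mitochondrial product had a recurring promoter region. A promoter peak in any ASC MyoD library was present for 6 of those 312 (1.92%) and for 3.21% of coding genes. By the starts in the RefSeq table, however, the promoter peaks of Acad10 and Coq8a lay 28961 and 4985 bp from their gene's start. The family genes are short, with a median RefSeq span of 9325 bp against 17169 bp for coding genes and 61668 bp for coding genes with a recurring region. Among genes of up to 10 kb a recurring region was present for 1 of 167 family genes (0.599%) and 1.84% of coding genes, among those of 10 to 50 kb for 6 of 120 (5%) and 4.79%, and above 50 kb for 5 of 28 (17.9%) and 14.6%. The family share was below that of all genes in the shortest class and slightly above it in the others. In each of these others a single gene fewer would put it below. The 6 genes of 10 to 50 kb include Mfng (span 17.6 kb), which is not mitochondrial. These shares were not tested.

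**Figure D3:**
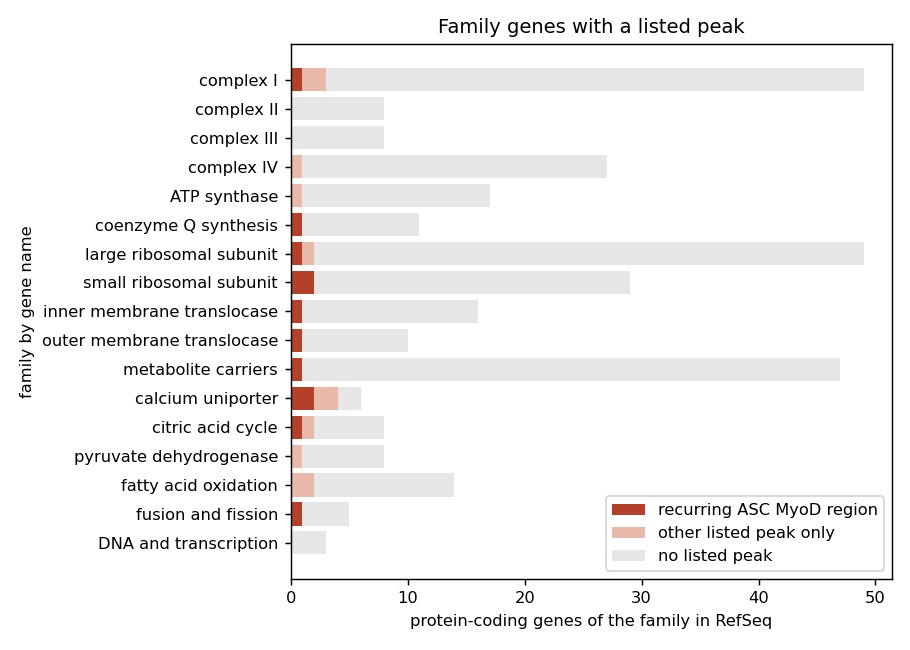
Protein-coding RefSeq genes of each family name, split into those with a recurring ASC MyoD region, with other listed peaks only, and without a peak. The calcium uniporter has 4 of 6 genes with a peak and 2 recurring, and complex II, complex III and the mitochondrial transcription factors have none. The only fusion and fission name with a peak is Mfng, which is not mitochondrial.

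In the respiratory chain, 3 of 49 complex I names and 1 each of the complex IV, ATP synthase and coenzyme Q names had a peak, and none of the 8 complex II and 8 complex III names did. Ndufa10 (ENSMUSG00000026260), an accessory subunit of complex I, had an intergenic region at chr1:92343072-92344466 with scores of 74.4, 181 and 139 in ASC MyoD replicates 1, 2 and 3 (mean 131 ± 53.7). A score is minus 10 times the log10 of the authors' peak p-value. It depends on the depth of its library and does not measure binding strength. The region was 95 kb from the Ndufa10 span, which was the nearest coding gene. Coq8a (ENSMUSG00000026489), an atypical kinase needed for coenzyme Q synthesis, had an intergenic region at chr1:180210409-180211353 in replicates 2 and 3 (62.0 and 88.1), 14.4 kb from the gene. Replicate 2 held further Coq8a peaks in the 3′ untranslated region (54.5) and at a promoter (57.2), which no other library held. Single-library peaks were given to Ndufv3, a complex I subunit (distal, replicate 1, 90.6), to Ndufa4l2, a relative of Ndufa4 known as a hypoxia target (promoter, replicate 3, 58.0), to Cox4i2, a complex IV subunit isoform (distal, replicate 2, 57.3), and to Atp5k, an ATP synthase subunit (promoter, replicate 3, 62.8). The Cox4i2 peak lay inside the RefSeq span of Bcl2l1.

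The mitochondrial ribosome held the highest scores. Mrps23 (ENSMUSG00000023723), a small-subunit protein, had an intergenic region at chr11:88230811-88231941 with scores of 307, 219 and 397 (mean 308 ± 88.8), all of them above 96% of the peaks of their list. It lay 19.3 kb from the Mrps23 span, the nearest coding gene, and overlapped Gm38534, whose start only the replicate 2 peak reached. Mrps28 (ENSMUSG00000040269), also of the small subunit, had 2 regions in its last intron, intron 2 of 2. The first, at chr3:8830751-8831647, scored 176, 244 and 141 in ASC MyoD (mean 187 ± 52.7) and was also the only member region called with both antibodies, with a score of 53.7 in ASC MyoG replicate 1. The second, at chr3:8850382-8851384, scored 78.7, 66.0 and 198 (mean 114 ± 72.9), a spread of 3.00-fold that was the widest of the recurring member regions. Mrpl48 (ENSMUSG00000030706), a large-subunit protein, had an intron 5 region at chr7:100555033-100556019 whose scores of 98.4, 86.9 and 91.2 (mean 92.1 ± 5.81) were among the most even. A further Mrpl48 peak of replicate 2 (52.04) lay on its promoter, where Rab6a starts on the opposite strand, so the peak overlaps both genes. The Mrpl34 promoter peak of replicate 3 scored 54.1, higher than 17.0% of the peaks of that list, and also overlapped Abhd8.

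The inner translocase, outer translocase and carrier names each had 1 gene with a peak, and each of these had 1 recurring region. Timm22 (ENSMUSG00000020843), the core of the translocase that inserts carriers into the inner membrane, had a region at its 3′ untranslated region, chr11:76415650-76416608, with scores of 52.6, 78.4 and 71.9 (mean 67.6 ± 13.5). Tomm20 (ENSMUSG00000093904), a receptor for imported proteins on the outer membrane, had an intergenic region at chr8:126847300-126848252 in replicates 2 and 3 (89.2 and 60.5), 82.4 kb from the gene and inside the noncoding gene Gm31718. Slc25a26 (ENSMUSG00000045100), the carrier of S-adenosylmethionine, was the only one of 47 carrier names with a peak, at exon 8 of 10 (chr6:94598260-94599261) in replicates 1 and 3 (55.9 and 66.0).

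The calcium uniporter was the family with the highest fraction of genes in the lists, 4 of 6. Mcu (ENSMUSG00000009647), the pore, had a region in intron 1 of 7 at chr10:59510426-59511303 in replicates 1 and 2 (107 and 71.1) and an intergenic one at chr10:59623226-59624182 in replicates 1 and 3 (59.9 and 67.9), 5.82 kb from the gene. Every ASC MyoD library thus held an Mcu peak, but neither region was in all 3. Micu2 (ENSMUSG00000021973), a calcium-sensing gatekeeper of the pore, had a region in intron 1 of 11 at chr14:57979911-57980842 with scores of 75.8, 75.3 and 61.4 (mean 70.9 ± 8.15), and a replicate 3 peak in intron 4 (55.1). Mcur1 (ENSMUSG00000021371), a regulator of the uniporter, was given a distal peak in ASC MyoD replicate 1 (75.7) and a different, intronic one in QSC MyoG replicate 2 (chr13:43541897-43542679, 58.1). It was the only member listed in both cell states, in regions that did not overlap.

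Among the fuel oxidation genes of the family names, only Cs (ENSMUSG00000005683), the citrate synthase that opens the citric acid cycle, had a recurring region. It lay in intron 1 of 10 at chr10:128344510-128345368 and scored 83.1, 89.6 and 57.0 (mean 76.5 ± 17.2). Idh2, the mitochondrial NADP-dependent isocitrate dehydrogenase, had a distal peak in replicate 3 (55.7). The acyl-CoA dehydrogenase family members Acad10 and Acad11 had 1 peak each, at a promoter in replicate 3 (51.5, the lowest of the ASC MyoD member peaks) and in an intron in replicate 2 (59.3). The Acad11 peak lay 12.1 kb from the RefSeq span of Acad11. Pdk4 (ENSMUSG00000019577), a kinase that switches off pyruvate dehydrogenase, was listed only in QSC MyoG replicate 1, by a distal peak at chr6:5458620-5459252 (53.6) 24.1 kb from the gene. Cox6c2 was listed only in ASC MyoG replicate 2 (distal, 57.1). The mitofusins Mfn1 and Mfn2, Opa1 and Dnm1l had no listed peak, nor had Tfam, Tfb1m and Tfb2m. Mfng (ENSMUSG00000018169), which is not mitochondrial, had the one recurring promoter region, at chr15:78773010-78774132, with scores of 72.9, 123 and 123 (mean 106 ± 28.9).

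**Figure D4:**
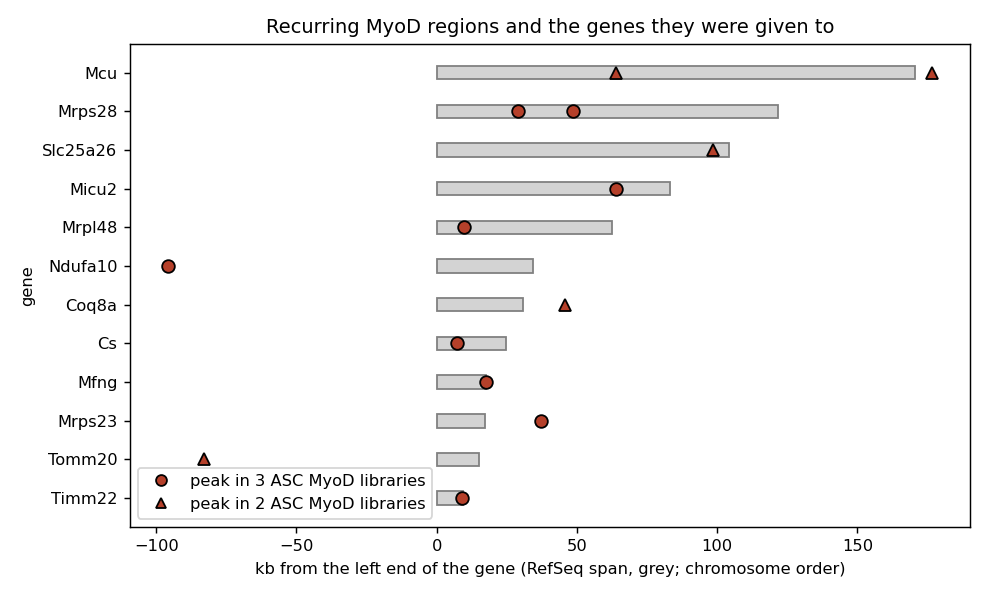
Recurring ASC MyoD regions (circles in 3 libraries, triangles in 2) relative to the RefSeq span of the gene they were given to (grey bars), in kb from the left end of the span. Of 14 regions, 9 overlap the span, and those of Ndufa10 and Tomm20 lie 95 and 82.4 kb away.

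In the recurring member regions, the centres of the peaks lay within 19 to 162 bp of each other (median 85.5 bp). The regions were 859 to 1395 bp wide, and the libraries shared 498 to 1145 bp. Such closeness is partly built in, because recurring regions were defined by overlap, and it was not measured for other genes. Scores had a highest-to-lowest ratio of 1.13 to 3.00 (median 1.5). The highest score fell in replicate 1, 2 and 3 for 3, 5 and 6 regions. Of the 14 regions, 6 were intronic (42.9%), 5 distal intergenic (35.7%) and 1 at a promoter (7.14%), against 35.2%, 35.4% and 22.8% of the 1971 recurring regions of other genes. Their median mean score was 82.9 (interquartile range 71.9 to 112) against 82.3 (67.6 to 108), and 64.3% of them against 55.5% were in 3 libraries. None overlapped a QSC MyoD peak, as was the case for all but 10 of the regions of other genes. The counts are descriptive.

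**Figure D5:**
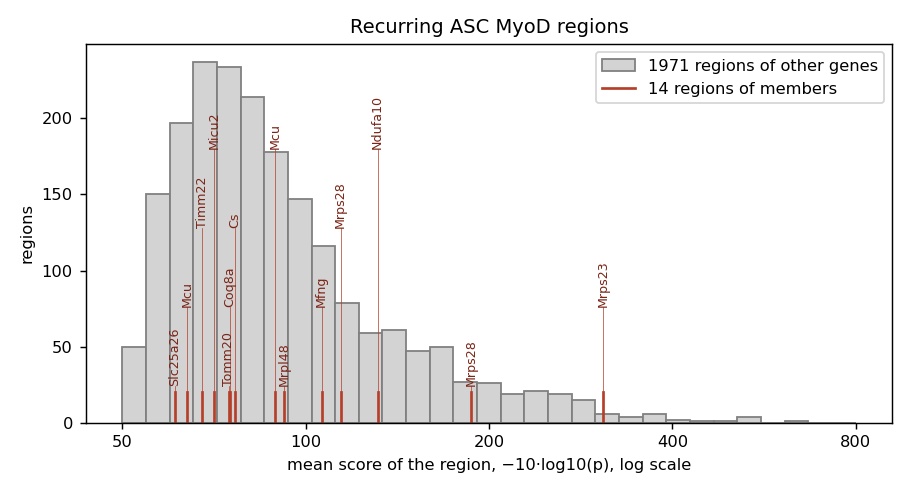
Mean score over the libraries with a peak (log axis) of the 1971 recurring ASC MyoD regions of other genes (grey histogram, regions per bin) and of the 14 member regions (red lines with gene names). The member median of 82.9 sits at the 82.3 of the other genes, with Mrps23 (308) far in the upper tail.

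Single-library and recurring member peaks were set side by side, without a test. The 37 recurring ASC MyoD member peaks scored 52.6 to 397 (median 83.1), and the 14 single-library peaks 51.5 to 90.6 (median 57.2), close to the medians of the other genes (83.2 and 58.5). Of the 14 single-library peaks 6 were at promoters, 3 in introns and 4 distal, and of the 37 recurring peaks 3, 17 and 12. For other genes these were 459, 735 and 769 of 2102 single-library peaks and 1154, 1777 and 1794 of 5057 recurring peaks. Replicates 1, 2 and 3 held 3, 5 and 6 of the single-library peaks. For 10 members these were the only ASC MyoD evidence.

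Within ASC MyoD libraries, member peaks were compared with those of all other genes, library by library. The promoter share was 6.67%, 17.6% and 26.3% for members (mean 16.9 ± 9.85%) and 22.5 ± 0.800% for other genes. The difference of -5.61 percentage points was smaller than its own spread of 10.5 and turned from -16.7 in replicate 1 to 4.18 in replicate 3 (exact sign-flip permutation p = 0.5, adjusted 0.65). Intronic shares were 39.8 ± 7.64% and 35.1 ± 0.198% (exact sign-flip p = 0.5, adjusted 0.65), with differences of 11.4, 6.21 and -3.38 points in replicates 1, 2 and 3. The mean difference of 4.73 was 16.2 at a score of at least 80 (exact sign-flip p = 0.25), 1.42 without replicate 1 and 8.79 without replicate 3. Distal shares were lower in members in 3 of 3 libraries, at 31.4 ± 1.96% and 35.9 ± 1.15% (exact sign-flip p = 0.25, the smallest possible with 3 libraries, adjusted 0.542). The share of peaks found again in another library was 73.0 ± 6.16% and 70.8 ± 2.31% (exact sign-flip p = 1), the median score 72.4 ± 5.53 and 72.0 ± 3.01 (exact sign-flip p = 0.75, adjusted 0.886) and the median width 837 ± 12.1 and 816 ± 45.5 bp (exact sign-flip p = 0.5, adjusted 0.65). None of these differences passed a test, and none could at 3 libraries.

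Names and positions did not always coincide. Of the 55 member peaks, 36 lay on or within 3 kb of the RefSeq span of a family gene and 19 did not. In the other direction, a single peak at a family gene carried another name: an ASC MyoD peak of replicate 3 (52.2) at the Phf14 promoter lay within 3 kb of Ndufa4. In sorted bulk cells, binding in a few cells and weak binding in many cannot be told apart.

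A list of 94 genes outside the family names, 93 of them in RefSeq, held other mitochondrial genes and 13 transcriptional regulators. Of these 94 genes, 11 had a peak, 9 an ASC MyoD peak and 4 a recurring ASC MyoD region, 2 of the 4 being regulators. Among all 21887 coding genes, 14.4% had a peak in any list and 5.93% a recurring ASC MyoD region. The difference between the list and all coding genes was not tested. The coactivator Ppargc1b, which promotes mitochondrial biogenesis, had 4 recurring regions with mean scores of 164 ± 18.3, 106 ± 25.4 and 61.4 ± 7.6 in intron 1 and 70.6 at a promoter, the first 2 in 3 libraries. The orphan receptor Esrrg had 2 in its intron 3, each in replicates 1 and 2 (84.9 ± 29.9 and 76.0 ± 27.2), and Suclg2, a subunit of succinyl-CoA ligase, had 1 in intron 9 in replicates 1 and 3 (70.3 ± 21.2). None of the 11 genes for mitochondrial DNA maintenance and expression and none of the 12 for pores, redox defence and cell death had a peak, while 4 of 23 oxidative metabolism genes, 1 of 21 assembly and quality control genes and 5 of 13 regulators did.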

How the data were processed

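Chromatin was fixed in 1% formaldehyde, sheared to about 500 bp and precipitated with antibodies to MyoD or MyoG. The submitters' processing notes name BWA 0.7.5, MACS, deepTools 3.5.0 and the mm10 build, and the MACS version, the annotation tool and the use of the input libraries are not given in the sources used here. The authors called peaks in each of 12 ChIP libraries separately, and each deposited list gives position (unit: other, bp), the gene and gene part of a peak, and its score, the negative log10 of the MACS p-value multiplied by 10 (lowest 50.0, p of 1e-05). The 2 input samples were not used here. No read counts were used, so depth is unknown, and a shallower library can yield fewer peaks.

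Groups and replicate numbers came from the sample titles. No source says that libraries of a group came from separate animals, so p-values measure only the spread between libraries. Peaks sharing at least 1 bp were merged into regions, and a region was recurring with a peak in at least 2 of 3 libraries. Library means were compared by exact two-sided permutation, and members with other genes by exact sign-flip within libraries, with Benjamini-Hochberg adjustment over 13 tests. Distance to a start counts among the 13 but is not reported: that check is void because only 67.6% of ASC MyoD peaks have a start of their gene in the promoter table, which held 17 of 24 members. RefSeq spans on GRCm38.p6 held 96.1% of 3145 intronic peaks of the genes they name. Region calling was run on simulated lists in which the peaks of a region always overlapped and regions lay far apart. That checks the code only and not the calls in these lists. The named genes were members with a recurring region, a MyoG or a QSC peak, and the 5 highest single-library scores among the rest. Members without a mitochondrial product were also named, as were listed mitochondrial genes and regulators outside the family names with a recurring region. The remaining members are named to account for them, except that some items are not reported here. Members, lists and tests were chosen with earlier results of these data known. Alternatives were a score of at least 80 (p of 1e-08), mitochondrial products only, distal peaks left out, each gene counted once, promoters within 1 kb, other recurrence, overlap and merging rules, pairing by replicate number, libraries left out and, chosen after seeing the data, membership by position. Analyses used Python 3.11.15, pandas 2.3.3, numpy 2.4.6, scipy 1.17.1 and matplotlib 3.10.9.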

Additional observations from a re-analysis of the deposited data

How the results depend on the processing

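Of 143 alternatives to 15 results, 128 kept the direction of a difference, or a count within 1.5-fold. The MyoG count difference of 0 has no direction and was counted as kept. The size of a difference was not judged. The promoter share difference of -5.61 percentage points was -0.043 without ASC MyoD replicate 1 and still counted as kept. No test could pass the usual threshold with 3 libraries a group, which says nothing about stability. At a score of at least 80, recurring member regions numbered 6 in place of 14 and members with an ASC-only recurring region 6 in place of 12, the MyoG share difference between ASCs and QSCs was 0, the distal share of members was 4.10 percentage points above that of other genes, and the median width difference was -66.2 bp. Recurring regions numbered 9 without distal peaks, 9 with membership by position, 9 when all 3 libraries were required and 28 when 1 library was enough, which gave 22 members with an ASC-only region. The median score difference was -0.398 with mitochondrial products only and -1.12 without distal peaks, where the width difference was -16 bp. Leaving out a library gave 10 to 14 recurring regions and 9 to 12 ASC-only members, replicated share differences of -2.59 to 4.99 (negative without ASC MyoD replicate 1) and median score differences of -1.08 to 2.02 (negative without replicate 2), and the MyoG count difference of 0 ranged from -0.333 to 0.333. The cause was not tested where it is not the smaller set itself.

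Same-numbered libraries showed no shared deviations: correlations of deviations over genes in 12 same-numbered pairs were -0.0190 to 0.00975. Most genes had no peak in a given list, so this check could not exclude shared animals or chromatin. Pairing by the replicate block left the differences at 17, 0 and 16.3 peaks and 0.715, -0.392 and 0.623 percentage points, with exact sign-flip p of 0.25, 1, 0.25, 0.25, 0.5 and 0.25. Depth is unknown, and the short QSC lists limit what can be said of them.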
